A study of Mus musculus with 4 samples.

Results

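Apical protein uptake in the neonatal gut was followed through 7 of the 32227 genes in the feature lists. They were the receptors Cubn, Amn and Lrp2, the receptor-like gene Mamdc4, the adaptor Dab2, the receptor chaperone Lrpap1 and the clathrin light chain Clta. These members were taken by name, with earlier results of these data known, so counts of members called beside all genes are a description. Medial jejunal and ileal segments were taken from 2 wild-type C57BL/6J mice at postnatal day 6, and the epithelium of each segment gave 1 single-cell library, so that each region had 2 libraries and replicate 1 and replicate 2 stand for the mice. The epithelium was released with EDTA, dissociated with dispase and captured by PIPseq, a droplet method in which each RNA molecule carries a barcode that is counted as a UMI. The question put to the members was how their RNA differed between ileum and jejunum, in which cell classes it was found, and whether the same cells held it. The labels name the first mouse male in batch 1 and the second female in batch 2, and both regions of a mouse shared its batch, so mouse, labelled sex and batch cannot be told apart.

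Enterocytes of suckling mammals take up milk proteins from the gut lumen by endocytosis. Cubilin, encoded by Cubn, is a large peripheral membrane protein that binds many protein ligands, among them the intrinsic factor and vitamin B12 complex. It is held at the apical membrane by amnionless, encoded by Amn, whose cytoplasmic tail carries the signals that engage adaptors such as Dab2, and Dab2 in turn binds clathrin and its AP-2 adaptor complex so that the receptor enters coated pits. Megalin, encoded by Lrp2, is a giant receptor of the LDL receptor family that shares ligands and endocytic tracts with cubilin in the kidney tubule. Lrpap1 encodes the receptor-associated protein, an endoplasmic reticulum chaperone for receptors of that family. Mamdc4 encodes endotubin, an apical endosomal membrane protein of the suckling gut, and Clta encodes clathrin light chain A.

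The 250-base windows just upstream of the transcription starts are shown for Dab2, Cubn and Lrp2, the adaptor and the receptors called between regions in enterocyte-like cells by region only or with the mouse as a block. They are the 250 bases before each RefSeq start in GRCm38.p6, 5′ to 3′ on the strand of the gene, with motif matches on either strand in capitals. The letters GTTAAT were searched as part of the site bound by HNF1. For HNF4 the letters searched were CAAAGT. The core searched for CDX factors was TTTAT, and that for GATA factors was AGATAA. The counts themselves were made on GRCm39, so these positions belong to the windows only.
Dab2, upstream start, chr15:6299539-6299788, plus strand: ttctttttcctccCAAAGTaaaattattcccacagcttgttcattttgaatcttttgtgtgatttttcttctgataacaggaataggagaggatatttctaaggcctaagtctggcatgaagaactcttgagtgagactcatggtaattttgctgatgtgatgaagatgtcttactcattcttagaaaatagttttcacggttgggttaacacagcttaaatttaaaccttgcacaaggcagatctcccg
Dab2, downstream start, chr15:6386498-6386747, plus strand: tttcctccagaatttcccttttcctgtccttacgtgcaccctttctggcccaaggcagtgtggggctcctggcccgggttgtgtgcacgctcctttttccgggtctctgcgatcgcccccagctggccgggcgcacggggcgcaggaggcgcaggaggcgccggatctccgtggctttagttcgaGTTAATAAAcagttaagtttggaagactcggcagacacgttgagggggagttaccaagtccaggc
Cubn, chr2:13491877-13492126, minus strand: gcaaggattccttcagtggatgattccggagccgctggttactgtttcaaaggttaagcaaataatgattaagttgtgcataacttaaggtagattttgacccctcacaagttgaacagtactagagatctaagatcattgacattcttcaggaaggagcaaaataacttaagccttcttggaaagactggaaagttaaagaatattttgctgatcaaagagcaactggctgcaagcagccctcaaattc
Lrp2, chr2:69586030-69586279, minus strand: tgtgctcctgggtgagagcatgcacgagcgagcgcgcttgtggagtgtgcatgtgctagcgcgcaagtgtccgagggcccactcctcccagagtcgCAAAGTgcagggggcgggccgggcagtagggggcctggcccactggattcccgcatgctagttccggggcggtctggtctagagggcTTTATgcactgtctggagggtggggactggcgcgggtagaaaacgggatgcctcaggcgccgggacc
The downstream Dab2 window held GTTAAT overlapping a match to TTTAT, the upstream one held CAAAGT, and the Lrp2 window held CAAAGT and TTTAT. No capitals fall in the Cubn window, which says only that these letters are not in it. Of 32851 RefSeq windows of the same length, 6.43% held GTTAAT, 12.6% CAAAGT, 37.3% TTTAT and 9.99% AGATAA. G and C made up 36.8% of the upstream Dab2 window, 60.0% of the downstream one, 39.6% of the Cubn window and 66.4% of the Lrp2 window, beside a median of 52.4% over all windows. Both Dab2 starts feed 1 count in these data, and which start was used was not tested.

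With limits of over 1000 and under 6000 genes and of less than 20% mitochondrial UMIs per cell, 30521 of 36202 called cells remained, between 5722 and 8997 per library. Cells were deeper in the ileum, with medians of 12048 and 10916 UMIs against 4689 and 5884 in the jejunum, and the median mitochondrial share was lower there, 3.61% and 3.74% against 6.37% and 9.94%. Kept cells shared no barcode between libraries. The sex labels did not match Xist and Eif2s3y. Xist was read in 95.4% and 82.1% of the cells of the mouse labelled male and in 0.765% and 0.699% of those of the mouse labelled female, while Eif2s3y was read in 0.0137% and 0.0778% against 53.8% and 34.5%. Other Y-linked genes did not follow, since in the first mouse Uty was read in 1.12% of ileal and 51.0% of jejunal cells and Ddx3y in 63.7% and 36.3%. Mice are therefore named here by replicate number only.

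Clusters were built without the 7 members and named from marker lists. The enterocyte-like class held 27853 cells in 17 clusters, in which all 12 enterocyte markers were detected and 10 or 11 of them were read in at least 50% of the cells of each cluster. The largest cluster was number 3 in the ileum (11.1% of the class) and number 0 in the jejunum (16.7%). The other classes were small, with 907 stem-like, 1429 cycling-like, 258 enteroendocrine-like, 53 immune-like and 21 goblet-like cells. Levels are given as CPM, the UMIs of a gene per 1000000 UMIs of a class in a library. Tests compared the sums of 2 ileal and 2 jejunal libraries, and a gene was called at an adjusted p under 0.05. Nothing in the labels says that more than 1 library was made per segment, so the p-values measure the spread between 2 libraries of a region, and an exact permutation test over them could not go below 1 in 3.

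In enterocyte-like cells, Dab2 and Lrp2 were higher in the ileum than in the jejunum. Cubn, Lrpap1 and Clta stood higher there in both mice and passed only in some alternatives, among them the mouse as a block. Amn also stood higher there in both mice, while Mamdc4 went opposite ways in the mice. Amn and Mamdc4 passed neither by region only nor with the block. By region only, 2 of the 7 members were called, both higher in the ileum, where 6.94% of the 19712 genes tested were called in either direction and 4.07% higher in the ileum. With the mouse as a block, 5 of 7 were called higher, beside 17.1% of all genes in either direction and 9.55% higher. The enterocyte markers went the other way in the same cells. Their summed level was 19295 and 23008 CPM in the ileum against 49531 and 51252 CPM in the jejunum, 5 of 12 were called lower in the ileum, and their median log2 fold change was -1.28. The part of this difference, and of cell depth, in the members' values was not tested.

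Dab2 (ENSMUSG00000022150), the adaptor, stood at 867 and 725 CPM in the ileum and at 452 and 334 CPM in the jejunum. Every ileal library lay above every jejunal one, and replicate 1 was the higher in each region. The region means were 796 ± 100 and 393 ± 83.0 CPM (SD, n = 2 each), a 2.03-fold difference. The quasi-likelihood test of edgeR, with p-values adjusted after Benjamini and Hochberg, gave a log2 fold change of 0.91 ± 0.18 (SE) and an adjusted p of 0.0457, or 0.00866 with the mouse as a block. The call rested on single libraries. The adjusted p of Dab2 by the same edgeR test was 0.143 without ileum replicate 1, 0.0902 without ileum replicate 2 and 0.133 without jejunum replicate 2.

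Lrp2 (ENSMUSG00000027070) showed the widest gap. It stood at 49.7 and 33.3 CPM in the ileum, from 4136 and 3044 UMIs, and at 6.83 and 1.69 CPM in the jejunum, from 374 and 71 UMIs. Both ileal values were several times either jejunal one, while the jejunal libraries differed from each other more, in proportion, than the ileal ones did. The edgeR log2 fold change was 3.17 ± 0.61 with an adjusted p of 0.0448, or 3.38 ± 0.35 and 0.0046 with the mouse as a block. The size rested on single jejunal libraries, with a log2 fold change of 4.47 without jejunum replicate 1 and 2.54 without jejunum replicate 2. Without ileum replicate 1 the adjusted p of Lrp2 by edgeR was 0.127 and without ileum replicate 2 it was 0.0824.

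Cubn (ENSMUSG00000026726), the ligand-binding receptor, stood at 440 and 439 CPM in the ileum and at 271 and 184 CPM in the jejunum. The ileal libraries were nearly equal and both lay above the jejunal ones, where replicate 1 was the higher. The log2 fold change was 0.84 ± 0.20 with an adjusted p of 0.0627 by edgeR, and 0.86 ± 0.16 with 0.0241 under the mouse block. Without jejunum replicate 1 Cubn was called, with an edgeR adjusted p of 0.0244, and DESeq2 called it as well.

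Amn (ENSMUSG00000021278), the membrane partner of Cubn, also had both ileal libraries above both jejunal ones, but by a narrow gap. It stood at 1369 and 1669 CPM in the ileum and at 1311 and 936 CPM in the jejunum. The mice differed, since the ileal level exceeded the jejunal one by 0.06 on the log2 scale in mouse 1 and by 0.83 in mouse 2. The log2 fold change was 0.33 ± 0.22, with an adjusted p of 0.354 by edgeR and 0.295 under the block. A p above the threshold does not show that the regions were alike, and leaving out single libraries moved the estimate between 0.13 and 0.56.

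Mamdc4 (ENSMUSG00000026941) was the member with the least regional difference. It stood at 1349 and 1657 CPM in the ileum and at 1636 and 1497 CPM in the jejunum, so the regions overlapped. The log2 difference, ileum over jejunum, was -0.28 in mouse 1 and 0.15 in mouse 2. The fitted log2 fold change was -0.17 ± 0.18 with an adjusted p of 0.576 by edgeR.

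The chaperone and the coat subunit differed by less but with tight replicates. Lrpap1 (ENSMUSG00000029103) stood at 54.0 and 53.2 CPM in the ileum and at 34.5 and 33.1 CPM in the jejunum. Clta (ENSMUSG00000028478) stood at 522 and 500 CPM in the ileum and at 348 and 325 CPM in the jejunum. Neither gene overlapped between regions. The log2 fold changes were 0.55 ± 0.13 and 0.49 ± 0.13, with edgeR adjusted p-values of 0.0637 and 0.0795, or 0.0284 and 0.0372 under the block. DESeq2 called both, with adjusted p-values of 0.00751 and 0.0101. When library totals alone were used for scaling, the median log2 fold change of all genes moved from -0.01 to 0.10, and Cubn, Lrpap1 and Clta were then called beside Dab2 and Lrp2.

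**Figure D1:**
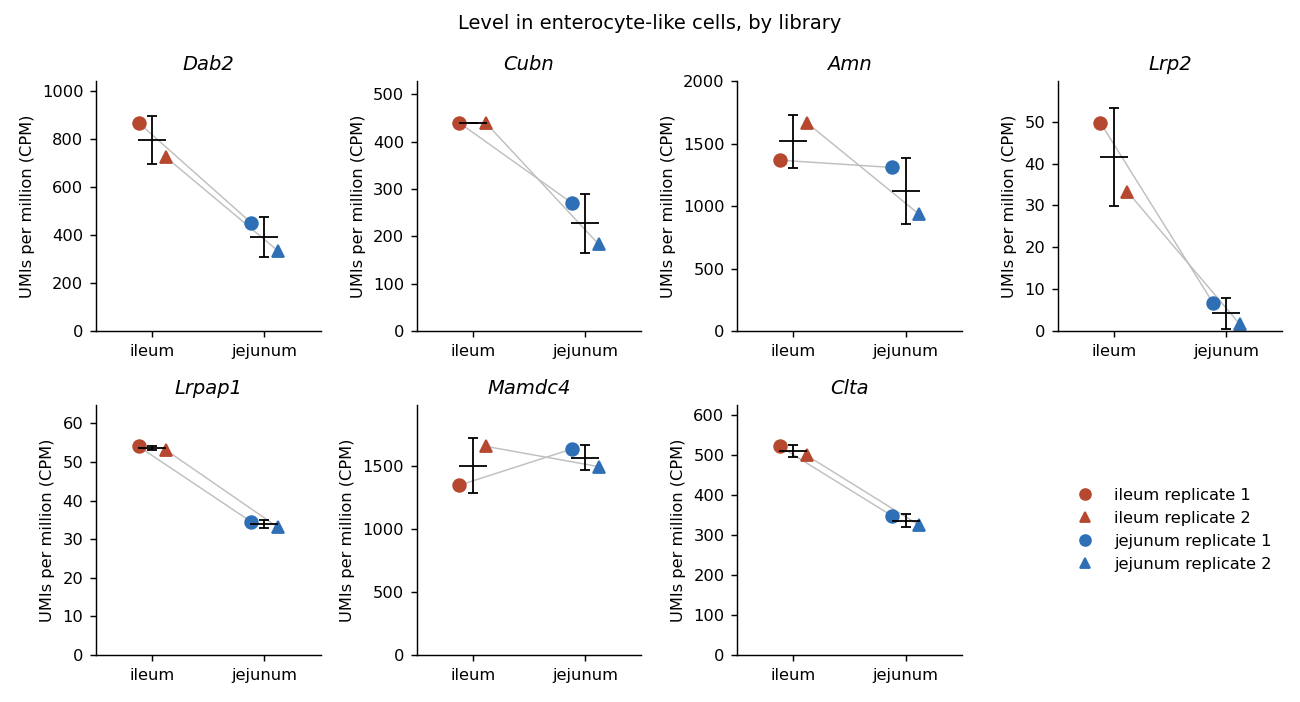
Level of each member in enterocyte-like cells, in UMIs per 1000000 (CPM), by library. Points are libraries, grey lines join the libraries of a mouse, and black bars are region means ± SD (n = 2 each). Dab2, Cubn, Lrp2, Lrpap1 and Clta have both ileal points above both jejunal ones, Amn does so with a small gap (1369 against 1311 CPM), and Mamdc4 overlaps. The share of all genes that stand apart in this way was not counted.

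The regional difference ran through the enterocyte-like clusters. In each of the 14 clusters with at least 50 cells in every library, both ileal libraries lay above both jejunal ones for Dab2, Cubn, Lrp2, Lrpap1 and Clta, for Amn this held in 10, and for Mamdc4 the ileum was above in 3, the jejunum in 3 and the regions overlapped in 8. These clusters come from the same 4 libraries and are not independent of each other. The share of all genes whose libraries stood apart in this way was not counted, so these counts only describe the members. The ratio of region means lay between 1.73 and 2.52 for Dab2, between 1.45 and 2.21 for Cubn and between 2.59 and 14.1 for Lrp2.

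Levels also differed between clusters within a region, given here as a description. Ileal Lrp2 ranged from 8.80 CPM in cluster 7, which was led by Fabp6 and Aldh1a1, to 105 CPM in cluster 12, which was led by Sprr2a2 and also carried Trf and Enpp3 among its leading genes. Ileal Dab2 ranged from 588 CPM in cluster 1 to 1203 CPM in cluster 6, led by Trf, Sprr2a2 and the villus tip gene Nt5e. Mamdc4 had its lowest ileal level, 991 CPM, in cluster 12 and its highest, 2218 CPM, in cluster 1. It did not run opposite to Dab2 and Lrp2 throughout. In ileal cluster 3 Mamdc4 stood at 2053 CPM, with Dab2 at 872 CPM and Lrp2 at 70.9 CPM. Cubn was highest in cluster 3 in both regions, at 677 CPM in the ileum and 468 CPM in the jejunum. That cluster was led by the nuclear noncoding RNAs Airn and Kcnq1ot1 and held Lrp2 itself among its leading genes, and its part in the Cubn level was not tested. Without clusters 3 and 18, the latter with Lars2 and several unnamed noncoding transcripts among its leading genes, Cubn was called between regions (log2 0.86, edgeR adjusted p = 0.0443), a choice made after the data were seen.

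**Figure D2:**
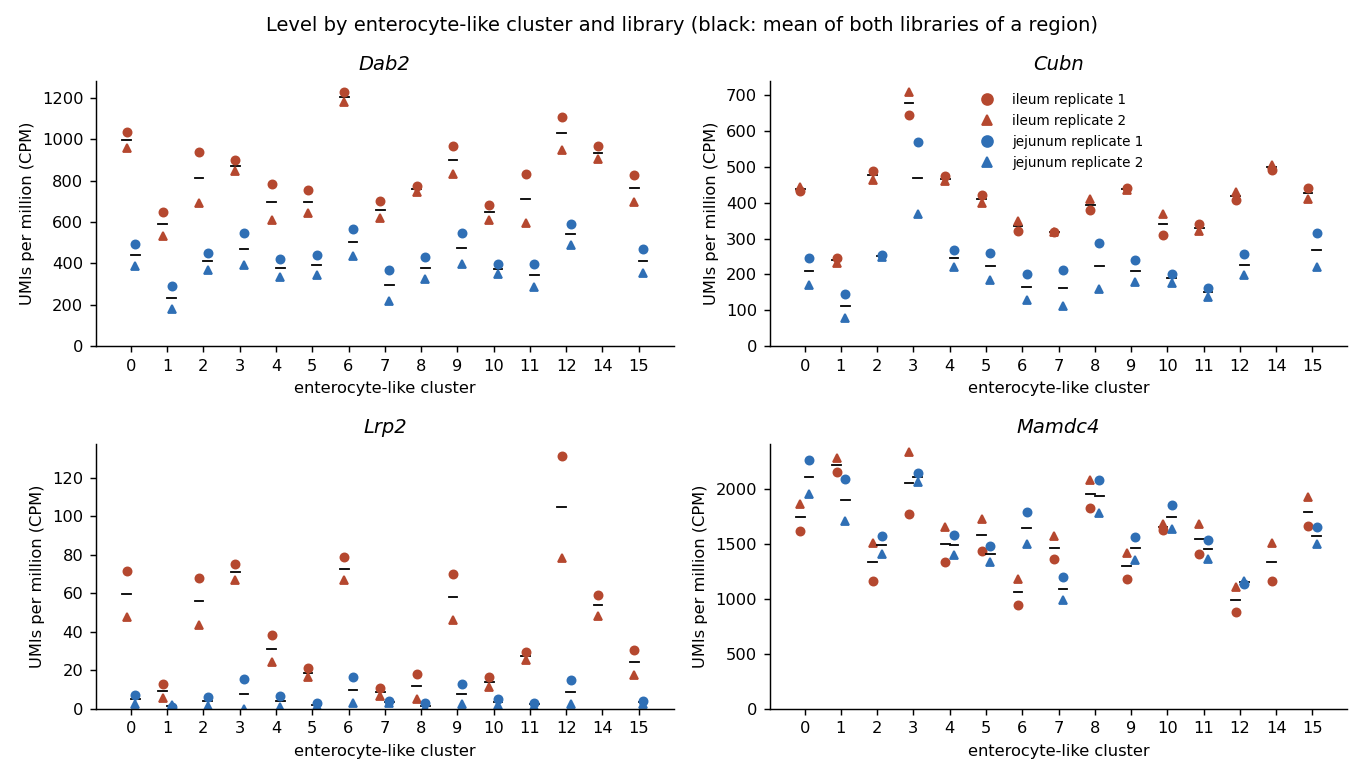
Level of Dab2, Cubn, Lrp2 and Mamdc4 in UMIs per 1000000 (CPM) by enterocyte-like cluster, for clusters with at least 50 cells in both libraries of a region. Points are libraries and black bars the mean of a region. Ileal Lrp2 peaks in cluster 12 at a mean of 105 CPM, Cubn peaks in cluster 3 in both regions, and Mamdc4 is low in clusters 6 and 12 of the ileum.

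Cells with villus tip RNA were set beside cells without it at an equal 2000 UMIs per cell, using 7 tip markers. Cells with at least 2 tip UMIs had 1.71 and 1.46 times the Lrp2 level of cells with none in the ileal libraries, 1.28 times in jejunum replicate 1 and 0.523 times in jejunum replicate 2, where Lrp2 was at 1.67 and 3.19 CPM. Mamdc4 was lower in the cells with tip RNA in all 4 libraries, at 0.828 to 0.930 times. For Dab2 the ratio was 0.913 to 1.15, and for Amn it was 1.05 to 1.08.

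Seen per cell, the members ranged from Amn and Mamdc4, read in nearly every enterocyte-like cell, to Lrp2, read in few. Without thinning, Amn was read in 93.6% to 99.0% of the cells and Mamdc4 in 98.7% to 99.2%, whatever the region. At 2000 UMIs per cell, which left out 46 and 272 ileal and 683 and 192 jejunal cells, Dab2 was read in 80.3% and 74.5% of ileal and in 57.3% and 45.4% of jejunal cells. The ileal mean was 26.1 percentage points higher. For Cubn the shares were 53.4% and 55.4% against 37.5% and 26.9%, and the ileal mean was 22.2 points higher. For Amn they were 90.9% and 95.6% against 87.9% and 79.6%, with the ileal mean 9.50 points higher and the ileal shares close to the ceiling. Lrp2 was read in 8.21% and 6.50% of ileal and in 1.37% and 0.432% of jejunal cells. The exact Clopper-Pearson 95% intervals of Dab2, Cubn, Amn and Lrp2 did not overlap between the regions (for Dab2 in jejunum replicate 1, 56.2% to 58.4%). Intervals cover counting error only, and with 2 libraries a region no permutation test could pass.

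**Figure D3:**
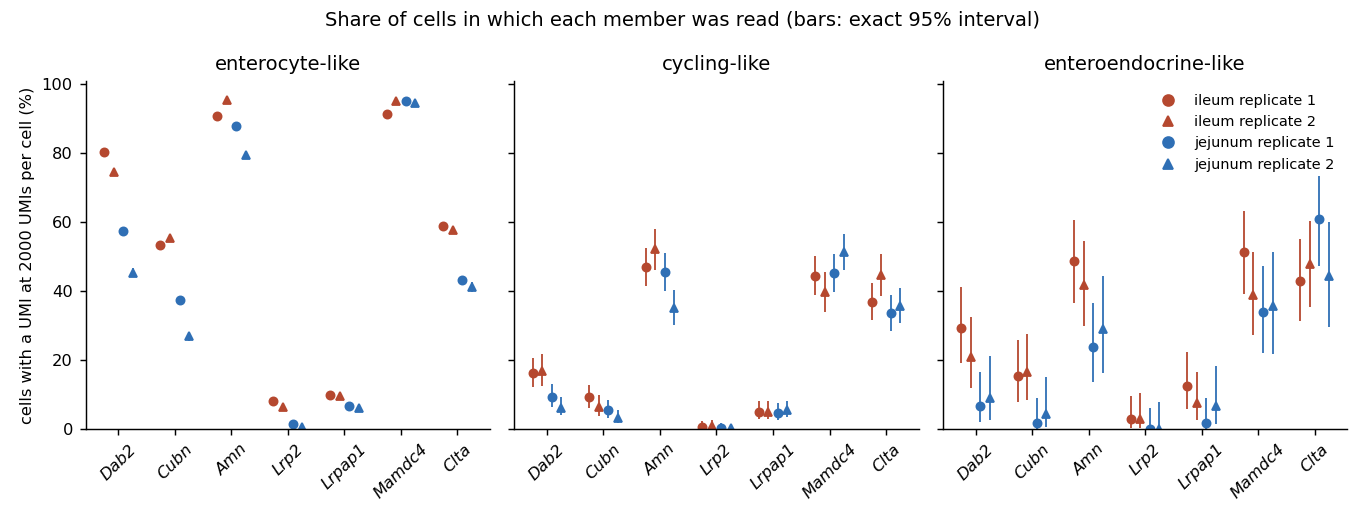
Share of cells with at least 1 UMI of each member, in percent, after every cell was thinned to 2000 UMIs, in 3 classes. Points are libraries and bars are exact 95% intervals of counting error. In enterocyte-like cells the ileal points of Dab2, Cubn and Clta stand well above the jejunal ones, and in the other 2 classes Dab2 and Cubn were read in under 30% of cells.

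Whether the receptor, its partner and its adaptor were read in the same cells was described at the same depth. Dab2, Cubn and Amn were all read in 39.7% and 40.1% of ileal and in 19.7% and 11.1% of jejunal enterocyte-like cells, and none of the 3 was read in 1.04% and 0.606% against 3.51% and 9.65%. These shares were close to what the single shares give. Dab2 and Cubn were read together in 43.6% and 41.8% of ileal cells, where the product of their shares is 42.9% and 41.2%, and in 22.4% and 13.4% of jejunal cells, where it is 21.5% and 12.2%. The odds ratio of this pair was 1.13 to 1.27 over the 4 libraries, above 1 in each. For Dab2 and Amn it was 0.957 to 1.22 and for Cubn and Amn 0.950 to 1.34, on both sides of 1. Across all 21 pairs of members, median odds ratios were between 0.67 and 1.54. Dab2 and Mamdc4 were under 1 in 3 libraries, at 0.766 to 0.874, and at 1.28 in jejunum replicate 2. The cells of a library share its free RNA as well as their depth, and values this near 1 in sparse counts are a description and no finding.

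The correlation of Dab2 with Cubn over enterocyte-like cells of a library was 0.05 on average (0.04 to 0.06), that of Dab2 with Amn 0.02 (-0.01 to 0.06) and that of Cubn with Amn 0.02 (-0.02 to 0.06). Among 3338 genes with a mean of at least 0.1 UMI in every library, other genes came closer to Dab2, Cubn and Amn than the members did to each other. Nearest to Dab2 were Lgmn, Gpx3, Ctsl, Clca4b and Enpp3, with mean r from 0.16 down to 0.13. Among those nearest to Amn were Ctsl, Pdzk1ip1, Fbp1 and Meltf, each with a mean r of 0.18. Lgmn and Ctsl encode lysosomal proteases. Nearest to Cubn were Apob, Pde4d, Ptprd, Nckap5 and Pid1, with 0.12 to 0.09. Cubn ranked 99th for Dab2, and Dab2 ranked 135th for Cubn. All these correlations are weak and are given over 4862 to 7589 cells that share a library.

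The surrounding pathway was read from 62 listed genes, 61 of which were tested in enterocyte-like cells. By region only, 6 were called higher in the ileum and 1 lower, beside 4.07% of all genes higher and 6.94% in either direction. With the mouse as a block they were 12 and 5, beside 9.55% higher and 17.1% in either direction. Among 14 other receptors, 5 were called higher, 1 lower and 8 not at all, with a median log2 fold change of 0.72 against -0.01 over all genes. The called ones were Vldlr (3.64 ± 0.34) and Sorl1 (2.09 ± 0.27), both of the LDL receptor family, Cd320, the transcobalamin receptor (1.26 ± 0.22), Sort1, a sorting receptor (0.78 ± 0.15), and Igf2r, which carries lysosomal enzymes (0.67 ± 0.13), with edgeR adjusted p-values from 0.016 to 0.0479. Vldlr was scarce, at 1.66 and 1.68 CPM in the ileum against 0.146 and 0.0953 CPM in the jejunum. Fcgrt, the neonatal Fc receptor that carries maternal IgG, went the other way, at 1005 and 1135 CPM against 4263 and 4052 CPM, a log2 fold change of -2.07 ± 0.17 with an edgeR adjusted p of 0.0149.

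Of 17 genes of clathrin and AP-2, 0 were called by edgeR by region only, 3 had an unadjusted p under 0.05, DESeq2 called 1 higher and 1 lower, and the block fit called 2 higher and 1 lower. Their median log2 fold change was -0.19. Cltb, the other clathrin light chain, had a log2 fold change of 0.51 ± 0.14, close to that of Clta, and was called under the block (edgeR adjusted p = 0.0494). The heavy chain Cltc had -0.29 ± 0.16 and was not called either way. Of 8 adaptors and motors edgeR called 0, with 2 at an unadjusted p under 0.05, while DESeq2 and the block fit each called 1 higher. In the list of early and recycling endosome genes 1 of 19 was called, Appl1, which marks an early endosome population, with 1.15 ± 0.18. The receptor Lrp1, at -0.66 ± 0.16, was called only under the block, with an edgeR adjusted p of 0.0352. Of the 3 tested genes of the cobalamin route, which handles the vitamin B12 that Cubn takes up, 0 were called by edgeR or DESeq2, and 0 had an unadjusted p under 0.05. In cycling-like cells 1 of 58 listed genes was called, Fcgrt at a log2 fold change of -1.98, beside 1.74% of all genes. In enteroendocrine-like cells, beside 2.23% of all genes, edgeR called 2 of 45 and DESeq2 called 0. The 2 were Tcn2, which carries vitamin B12 (1.58), and the lipoprotein receptor Scarb1 (-1.92). Tcn2 and Scarb1 are named after their values were seen.

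Outside the enterocyte-like class the members differed in how much of their level was kept. In cycling-like cells, the level of Dab2 was 8.04% to 10.7% of the enterocyte-like level of the same library and that of Cubn 5.23% to 8.27%, while the median of the 12 enterocyte markers stood at 13.2% to 17.1%. Amn and Mamdc4 kept 19.9% to 27.6%. Clta and Lrpap1 kept 52.8% to 86.0%. In stem-like cells Dab2 stood at 15.1% to 39.8%, Amn at 35.9% to 57.9%, Mamdc4 at 24.2% to 60.6% and the marker median at 26.0% to 32.3%. These are levels of clusters and carry no test.

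**Figure D4:**
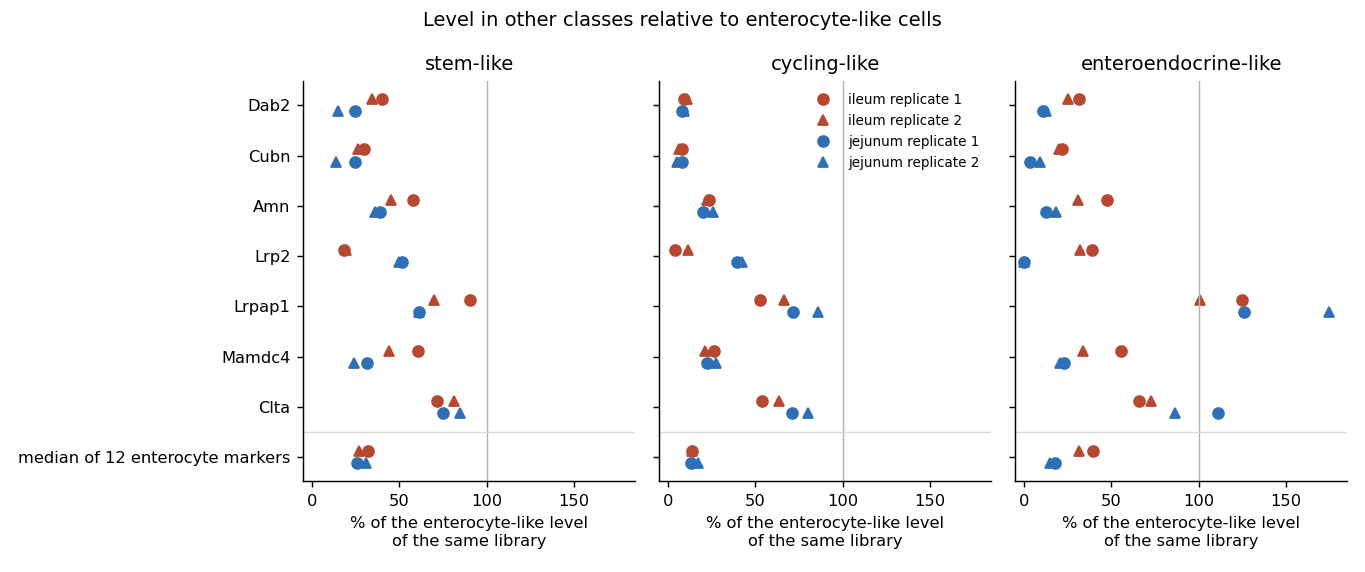
Level of each member in stem-like, cycling-like and enteroendocrine-like cells as a percentage of the enterocyte-like level of the same library, with the median of 12 enterocyte markers below. Points are libraries. In cycling-like cells Dab2 and Cubn lie below the marker median and Clta and Lrpap1 above 50%, and in enteroendocrine-like cells the ileal points of Dab2, Cubn, Amn, Mamdc4 and the marker median all lie to the right of the jejunal ones.

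Dab2 was also higher in the ileum in cycling-like cells. It stood at 81.1 and 77.4 CPM in the ileum and at 36.3 and 31.3 CPM in the jejunum, with no overlap, and its log2 fold change was 1.17 ± 0.17 (edgeR adjusted p = 0.00753). It was 1 of 6 members tested that was called, beside 1.74% of 11768 genes in either direction and 0.68% higher in the ileum. Lrp2 did not pass the filter on low counts. Cubn had 0.99 ± 0.35 and an edgeR adjusted p of 0.221, and Amn 0.41 ± 0.14 and 0.215. The Dab2 call was lost, at an edgeR adjusted p of 0.0513, without ileum replicate 1 and at 0.057 with cells thinned to 2000 UMIs. Cubn was called without jejunum replicate 1, with a log2 fold change of 1.68 (edgeR adjusted p = 2.67e-05). When cycling cells were picked by their own markers in place of clusters, all 7 members were called higher in the ileum. Beside them 1468 of 13417 genes were called, 1009 of them higher, in place of 205 of 11768 with 80 higher. The picked class held other cells, 565 and 579 ileal and 481 and 479 jejunal ones, in place of 322 and 318 ileal and 380 and 409 jejunal ones. The part of this change in the calls was not tested. With library totals alone, calls over all genes split into 102 higher and 104 lower in place of 80 and 125, and Dab2 was still called. With the mouse as a block 1 of 6 members was still called, Dab2, beside 4.85% of all genes in either direction and 2.15% higher. Under the mitochondrial limit of 10% Cubn was called as well, with a log2 fold change of 1.73.

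The class was made of clusters 16 and 17, which differed in what they held. Cluster 16, with a median of 2617 UMIs and a mitochondrial share of 9.55%, had Dab2 at 178 and 184 CPM in the ileum and 81.0 and 54.1 CPM in the jejunum, and Mamdc4 at 803 to 1055 CPM. Cluster 17, with a median of 9293 UMIs and led by Olfm4, Ccna2 and Mki67, had Dab2 at 52.1 and 49.0 CPM against 19.7 and 22.0 CPM, and Mamdc4 at 116 to 224 CPM. Dab2 was higher in the ileum in both clusters in both mice. Cubn was so in cluster 17, at 29.3 and 21.7 CPM against 8.61 and 4.51 CPM, and overlapped in cluster 16.

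The difference between regions did not itself differ between enterocyte-like and cycling-like cells at the threshold for 6 of the 7 members. Only Lrp2 was called in the interaction of region and class, by 2.55 ± 0.73 on the log2 scale (edgeR adjusted p = 0.0186), beside 8.46% of 19974 genes in either direction and 5.5% in its direction. Cycling-like Lrp2 came from few molecules, at 2.00 and 3.87 CPM in the ileum and 2.69 and 0.712 CPM in the jejunum. The call was lost at an edgeR adjusted p of 0.214 without ileum replicate 1, 0.334 without jejunum replicate 1, 0.533 with cells thinned to 2000 UMIs and 0.155 with a mitochondrial limit of 10%. For Dab2 the interaction was -0.20 ± 0.19 and for Cubn -0.11 ± 0.24, with edgeR adjusted p-values of 0.622 and 0.857.

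In enteroendocrine-like cells, the hormone-making cells of the gut, Dab2, Cubn and Amn were higher in the ileum than in the jejunum. Dab2 stood at 273 and 182 CPM in the ileum, from 85 and 51 UMIs, and at 47.8 and 41.2 CPM in the jejunum, from 11 and 10 UMIs. Cubn stood at 96.2 and 89.0 CPM against 8.68 and 16.5 CPM, the latter from 2 and 4 UMIs, and Amn at 651 and 516 CPM against 165 and 173 CPM. No ileal library overlapped a jejunal one for any of them, and the share of all genes standing apart in this way was not counted. The log2 fold changes were 2.36 ± 0.35, 2.83 ± 0.50 and 1.79 ± 0.26, with edgeR adjusted p-values of 0.00345, 0.00816 and 0.00345. They were 3 of 6 members tested, beside 2.23% of 6045 genes called in either direction and 1.64% higher. Under the block Mamdc4 was called too, with 0.94 ± 0.23 (edgeR adjusted p = 0.00716), and without ileum replicate 2 its edgeR adjusted p was 0.0014. The block fit thus called 4 of 6 members, beside 5.84% of all genes in either direction and 3.89% higher, while DESeq2 did not call Cubn (adjusted p = 0.157). Lrp2 had 6 and 3 UMIs in the ileum and 0 in both jejunal libraries, where 3 UMIs would be 13.0 and 12.4 CPM, so no fold is given.

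The enteroendocrine-like class was small (73 and 71 ileal and 68 and 46 jejunal cells), and enterocyte markers were read in it. The summed enterocyte markers stood at 9012 and 7658 CPM in the ileum and at 11193 and 10760 CPM in the jejunum. Of the 12 markers edgeR called 0 between regions, with 7 at an unadjusted p under 0.05, DESeq2 called 1, and their median log2 fold change was 0.03. Set against the enterocyte-like cells of the same library, where the jejunum had more of them, they stood higher in the ileum. The median of the 12 markers was 39.3% and 31.5% of the enterocyte-like level in the ileal libraries and 17.8% and 14.9% in the jejunal ones, and Dab2 stood at 31.4% and 25.1% against 10.6% and 12.3%. In an interaction of region with enteroendocrine-like against enterocyte-like cells, added after these values had been seen, Dab2 (1.57 ± 0.38), Cubn (2.16 ± 0.55), Amn (1.60 ± 0.30) and Mamdc4 (1.27 ± 0.28) were called, 4 of 7 members, beside 3.9% of 17350 genes in either direction and 2.81% in that direction, with edgeR adjusted p-values from 2.45e-05 to 0.00477. Calls over all genes split into 487 positive and 189 negative, or 238 and 299 with library totals alone, where the median of all genes moved from 0.12 to -0.13 and the same 4 members were called. Of these, Dab2 was not called without ileum replicate 1 (edgeR adjusted p = 0.065), jejunum replicate 1 (0.184) or jejunum replicate 2 (0.163), and Cubn without jejunum replicate 1 (0.48) or jejunum replicate 2 (0.0582). Amn was not called without jejunum replicate 1 (edgeR adjusted p = 0.0652), and Mamdc4 without ileum replicate 1 (0.0953) or jejunum replicate 2 (0.249). In the same fit all 12 enterocyte markers had a positive value, with a median of 1.41, and 8 of them were called. The part of enterocyte RNA in the enteroendocrine-like values was not tested. Clta and Lrpap1, which were at 65.7% to 174% of the enterocyte-like level there, had log2 fold changes of 0.09 ± 0.25 and 0.26 ± 0.40 and were not called.

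**Figure D5:**
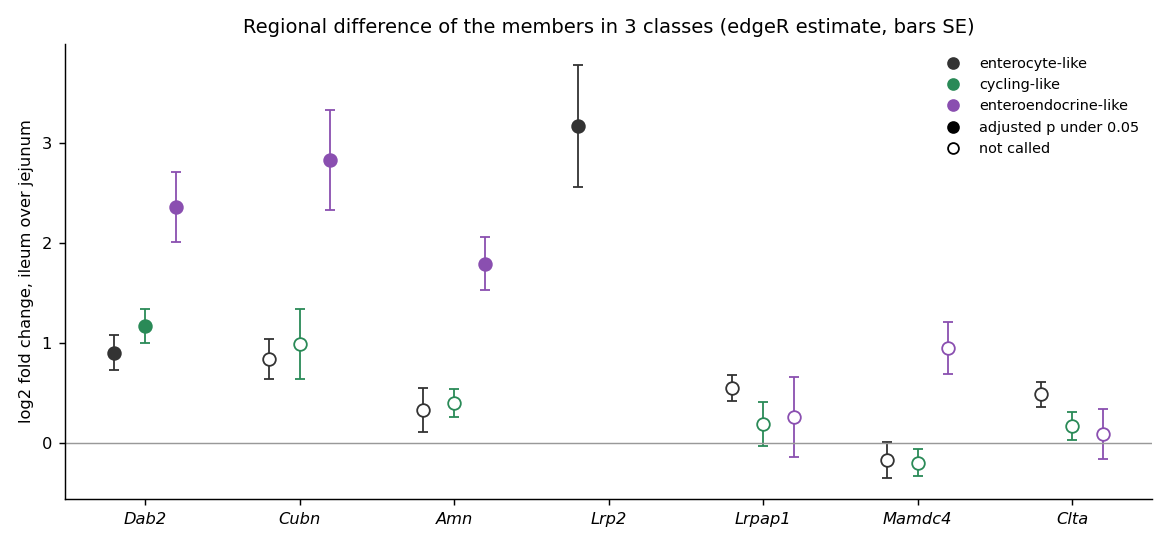
Log2 fold change of each member, ileum over jejunum, in 3 classes, as fitted by edgeR with its SE. Filled points have an adjusted p under 0.05. Dab2 is above 0 and called in all 3 classes, Lrp2 was tested in enterocyte-like cells only, and Mamdc4 lies at or below 0 in enterocyte-like and cycling-like cells.

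Immune-like cells served as cells that should not make cubilin or amnionless. At 2000 UMIs per cell, 19 ileal and 30 jejunal immune-like cells remained, and Amn was read in 21.1% of the former (exact 95% interval 6.05% to 45.6%) and in 13.3% of the latter (3.76% to 30.7%). The enteroendocrine-like shares were 45.3% (36.9% to 54.0%) and 26.0% (17.9% to 35.5%), with overlapping intervals. For Cubn the immune-like shares were 5.26% (0.133% to 26.0%) in the ileum and 3.33% (0.0844% to 17.2%) in the jejunum. Enteroendocrine-like Cubn was at 15.8% (10.2% to 23.0%) and 2.88% (0.599% to 8.20%), so these intervals overlapped too. Neither Amn nor Cubn in enteroendocrine-like cells was thus told apart from immune-like cells at this depth. For Dab2, which macrophages can also make, the immune-like shares were 21.1% and 3.33% and the enteroendocrine-like ones 25.2% and 7.69%, again with overlapping intervals. Few immune-like cells made the intervals wide and such overlap likely, and Dab2 in immune-like cells need not be background. Whether enteroendocrine-like Dab2 stood above background could therefore not be decided. Median depths before thinning were 3282 to 7382 UMIs in immune-like and 3187 to 5326 UMIs in enteroendocrine-like cells. In cycling-like cells Dab2 was read in 16.4% (13.5% to 19.6%) of ileal and 7.71% (5.85% to 9.95%) of jejunal cells. The immune-like intervals, 6.05% to 45.6% and 0.0844% to 17.2%, covered these, so cycling-like Dab2 could not be judged against background either. Cycling-like Amn was read in 49.4% (45.3% to 53.5%) of ileal and 40.0% (36.3% to 43.7%) of jejunal cells. These intervals overlapped the immune-like one in the ileum and not in the jejunum. By library, the interval overlapped the immune-like one in ileum replicate 1 (41.4% to 52.7% against 7.49% to 70.1%) and jejunum replicate 1 (40.0% to 51.0% against 6.41% to 47.6%). It did not in ileum replicate 2 (46.1% to 58.1% against 0.253% to 44.5%) or jejunum replicate 2 (30.3% to 40.2% against 0% to 26.5%, from 12 cells). These shares by region pool the cells of both mice, and cells are not replicates.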

How the data were processed

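Single-cell RNA-seq was read from 4 UMI count matrices deposited by the authors, 1 per library, which hold whole-number counts of molecules per gene and cell as called by PIPseeker at sensitivity level 3. The build GRCm39 is given by the submitters' processing notes, and the counter and annotation versions are not given in the sources used here. Cells with over 1000 and under 6000 genes and under 20% mitochondrial UMIs were kept, after the study's limits. No doublet caller was run, so doublets below the gene limit remain.

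Cells were clustered in Seurat 5.3.0 with CCA integration over libraries (2000 variable genes less the members among them, 30 components, resolution 1), and the 23 clusters were named from marker lists. UMIs were summed per class and library and tested in edgeR 4.0.16 with the quasi-likelihood test, TMM scaling, filterByExpr and Benjamini-Hochberg adjustment. Standard errors are the log2 fold change divided by the root of the F statistic. DESeq2 1.42.0 was an alternative, and an interaction was fitted over 8 class sums with the library as a term. Because the libraries of both regions came from the same mice, the mouse was also used as a block. Across 12685 genes, the difference between the mice in the ileum correlated with that in the jejunum at 0.39. On simulated data with known changes, the enterocyte-like test recovered 48.4% of genes changed by 1 on the log2 scale and 98.5% of those changed by 2, and the enteroendocrine-like test 23.4% and 90.9%. False calls on these data numbered 14 in the enterocyte-like and 9 in the enteroendocrine-like test.

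Every member was named whatever its value, pathway genes were named where called in enterocyte-like cells, with close relatives of the members named whatever their values, and the 5 genes nearest to Dab2, Cubn and Amn by correlation were named. Some items that this rule would name are not reported here. The members and all lists were chosen with earlier results of these data known. Alternatives were other scalings, no filter on low counts, a mitochondrial limit of 10%, cells thinned to 2000 UMIs, cells picked by markers, all kept cells and leaving out each library. The fits without clusters 3 and 18 and the interaction with enteroendocrine-like cells were added after the data were seen. Upstream windows came from RefSeq, GRCm38.p6, with a window for all 7 members.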

Additional observations from a re-analysis of the deposited data

Results flagged for a closer look

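The regional difference of Lrp2 was larger in enterocyte-like than in cycling-like cells by 2.55 on the log2 scale, by the interaction of region and class. Against enterocyte-like cells, 4 enteroendocrine-like interactions passed the same test, at 1.57 for Dab2, 2.16 for Cubn, 1.60 for Amn and 1.27 for Mamdc4. Beside these 4 of 7 members, 3.9% of all genes were called, and in that fit the enterocyte markers were positive as well (12 of 12). That fit was added after the values had been seen, and each of the 4 calls depended on single libraries.

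In other results the mice went opposite ways between the regions, which was not tested. The log2 ratio of ileum over jejunum was -0.43 in mouse 1 and 2.44 in mouse 2 for Lrp2 in cycling-like cells, where each library had few UMIs of it. It was 0.63 in mouse 1 and -0.11 in mouse 2 for Lrpap1 in enteroendocrine-like cells, and -0.17 and 0.38 for Clta there. For Mamdc4 in enterocyte-like cells it was -0.28 and 0.15. With 2 libraries a region, no library could be tested for standing apart from its group.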

How the results depend on the processing

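In enterocyte-like cells 1368 genes were called, 3363 with the replicate block, 3106 with DESeq2 and 131 to 1707 when a library was left out. In cycling-like cells 205 became 571 with the replicate block, 719 without the filter, 1468 in marker-picked cells and 102 to 752 with a library left out. In enteroendocrine-like cells 135 became 353 with the replicate block, 44 with DESeq2, 295 without the filter and 117 to 454 with a library left out, and the 1689 of the interaction became 487 with thinned cells, 900 with DESeq2 and 756 to 1282 with a library left out. The ileal excess in cells with a UMI was 26.1 points for Dab2 (19.2 at 4000 UMIs, 20.1 to 32.0 with a library left out), 22.2 for Cubn (15.7 at 1000 UMIs, 16.9 to 27.5) and 9.50 for Amn (14.3 at 1000 and 2.85 at 4000 UMIs, 5.34 to 13.7). The mean odds ratio of Dab2 and Amn, 1.08, became 1.26 in marker-picked cells and 1.63 at 4000 UMIs, and was 1.04 to 1.12 with a library left out. Causes were not tested.

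Directions turned only for log2 values near 0 or in small classes. Mamdc4 was -0.37 to 0.019 in enterocyte-like cells with a library left out, turning without ileum replicate 1, and was 1.05 in marker-picked cells and 0.48 under the mitochondrial limit of 10% in cycling-like cells. Lrpap1 became -0.15 in thinned cycling-like cells, and Clta was -0.11 to 0.33 in enteroendocrine-like cells with a library left out, turning without jejunum replicate 2. In the interaction with cycling-like cells, Cubn was -0.53 to 0.20 with a library left out, turning without ileum replicate 1 (0.062) and jejunum replicate 2, and 0.093 in thinned cells. Amn was -0.16 to 0.13, turning without ileum replicate 1 (0.035) and jejunum replicate 1, and was 0.016 without the filter and 0.014 without clusters 3 and 18. Mamdc4 was -0.060 to 0.22, turning without ileum replicate 2 and jejunum replicate 2 (-0.055), and was -0.49 under the limit of 10%, where it was called (edgeR adjusted p = 0.0424), as was Cubn at -0.86 (0.0401). In the enteroendocrine-like interaction Lrpap1 was -0.35 to 0.048, turning without jejunum replicate 2. Of the other values for single members, 264 kept direction and side of the threshold, 23 passed it only under the alternative and 20 no longer passed it. The block changed no call of a member other than those given with it. A pair of libraries a region and few enteroendocrine-like cells limit what could be called.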

Other observations

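Immune-like cells, 53 in all and led by Gzma, Srgn and Ccl5, held Dab2 at 497 and 89.4 CPM in the ileum and at 91.1 and 11.5 CPM in the jejunum. Dab2 is also made by macrophages. Summed macrophage markers of the same libraries stood at 45.2 and 3041 CPM in the ileum and at 653 and 11.5 CPM in the jejunum. Amn in the same cells stood at 814 and 89.4 CPM in the ileum and at 251 and 57.7 CPM in the jejunum. The source of immune-like Dab2 was not tested. With 9 to 19 cells a library these levels are values only.

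Among member pairs not given above, Amn and Lrpap1 had an odds ratio of co-detection from 1.26 to 1.55 over the libraries. Other pairs also stayed above 1, such as Amn and Mamdc4 (1.12 to 2.05) and Cubn and Lrp2 (1.09 to 2.07). Lrpap1 and Mamdc4 (1.02 to 1.32) and Dab2 and Lrpap1 (1.00 to 1.12) did so as well. Lrp2 and Lrpap1 had 1.14 to 1.26, with a small constant added to every count. In jejunum replicate 2 that pair was read together in 1 cell, 0.0206% of cells beside a product of shares of 0.0260%. Lrp2 and Mamdc4 ranged from 0.224 to 3.47 over the libraries, with Lrp2 read in few cells of the jejunum.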
